A study of Mus musculus with 22 samples.

Results

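The insulin-like growth factor (IGF) axis was followed in adult mouse choroid plexus (ChP) through 10 genes out of 33984 measured. They are the ligands Igf1 and Igf2, the receptors Igf1r and Igf2r, and the binding proteins Igfbp2, Igfbp3, Igfbp4, Igfbp5, Igfbp6 and Igfbp7. They were chosen by name, with earlier results of these data known. Each gene is represented by the transcript that held the most counts over all libraries. All 10 passed the filter on low counts in every comparison.

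RNA sequencing was done on 14 pools of ChP, 2 pools (A and B) in each of 7 groups. In the conditional model, Otx2 lox/lox mice aged 3 months (strain label S129) received Cre-Tat, a recombinase protein that enters cells, or vehicle into the lateral ventricles, and the ChP of the lateral ventricles (LV) and of the fourth ventricle (4V) was taken 15 days later. These mice all carry the floxed alleles, vehicle mice included, and a pool holds 5 mice for Cre-Tat and 4 for vehicle. In the constitutive model (strain label B6D2) only 4V ChP was taken, from mice labelled Otx2 (+/-), which carry GFP at 1 Otx2 allele (Otx2+/GFP), from wildtype littermates, and from mice labelled Otx2 (+/AA), for which the labels give the genotype alone. The methods name 4 Otx2+/GFP mice and 5 wildtype littermates, aged 3 months, without saying whether for each pool or in all. Each pool that the methods describe joins several mice, so differences between single mice cannot be seen. LV and 4V ChP came from the injected mice of the same experiment, but the sources do not say that LV and 4V pools of 1 letter hold the same mice, and the fits treat them as separate, and the p-values measure the spread between pools. The constitutive model was sequenced in a separate run, so the model and the run cannot be told apart.

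Counts summed over all transcripts were 22750019 to 50088408 per pool. Of the 16 conditional files, 14 carry a library number other than that of the sample they were deposited under, and all were joined by library number. Joined in this way, both sequencing runs of a pool differed by no more than sampling noise (chi-square of 1 to 1.04 per degree of freedom), against 21.1 to 37.3 as deposited. Otx2, the targeted gene, went against the labels when its leading transcript was counted whole. In CPM (counts scaled to a common library size) its leading transcript stood at 391 and 476 in LV vehicle pools A and B and at 1245 and 1015 in LV under the Cre-Tat label. In 4V ChP the level was 383 and 392 with vehicle, against 1195 and 1211 under the Cre-Tat label. In the constitutive model it was 362 and 303 in wildtype, 1034 and 884 in the pools labelled Otx2+/-, and 339 and 353 in those labelled Otx2+/AA. The log2 fold changes were 1.41 in LV, 1.64 in 4V and 1.53 for Otx2+/- (adjusted p of 0.00051, 1.2e-06 and 0.0011), and 0.06 for Otx2+/AA. Of 8 Otx2 transcripts, 8 rose in LV, 8 in 4V and 7 in Otx2+/-, where the lowest log2 fold change was -0.52. The paper, counting 1 exon of Otx2, reports a decrease with Cre-Tat in LV and in 4V, and in Otx2+/GFP 4V. That exon was not counted by itself here, and each group goes by its label in all that follows. Each direction below is a difference between labels. The epithelial markers Ttr, Kl, Aqp1, Kcnj13, Folr1, Clic6, Prlr, Kcne2, Slc4a10 and Enpp2 were all detected, together at 87417 to 235760 CPM per pool, while 5 markers of blood cells summed to 0.121 to 9.05 CPM.

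IGF1 and IGF2 are small secreted growth factors related to insulin. Both signal through IGF1R, a receptor tyrosine kinase, while IGF2R, the large mannose-6-phosphate receptor, takes IGF2 up and delivers it to lysosomes. The IGF binding proteins hold the ligands in body fluids and can either limit or extend their action, and IGFBP7 binds IGFs only weakly. The ChP is a main source of the IGF2 of cerebrospinal fluid, which bathes the stem cell niche of the ventricle wall.

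Per kilobase of transcript, Igfbp2 was the highest of the 10 genes in every group. Its mean level ran from 660 CPM per kilobase in 4V pools labelled Cre-Tat to 1889 in wildtype 4V. Igf2 and Igfbp7 took the next places. Igf2 ranked above Igfbp7 in LV vehicle (416 against 237), 4V vehicle (261 against 201) and wildtype (468 against 434). The order was turned in the pools labelled Cre-Tat of LV (187 against 320) and 4V (112 against 291) and in those labelled Otx2+/- (188 against 426). In the pools labelled Otx2+/AA, Igfbp7 at 350 and Igf2 at 327 overlapped between pools. Igf2r, Igfbp3, Igfbp4 and Igfbp5 formed a middle tier with group means of 12.4 to 47.1 CPM per kilobase, and several neighbours within it overlapped. Igf1r (5.31 to 6.43) and Igfbp6 (3.25 to 12.4) were low. Igf1 was the lowest gene in every group, at 1.22 to 4.59, and its pools overlapped those of Igf1r only in the group labelled Otx2+/-. Each level was divided by the length of the leading transcript, so the ranks depend on which transcript is taken. For Igf2 that was Igf2-205, with 4722 bases, while Igf2-201, with 3708 bases, held 99.8% as many counts. For Igf1 it was Igf1-202, with 7052 bases, while Igf1-206, with 651 bases, held 23.2% as many. Ranks with the shorter transcripts were not computed.

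**Figure D1:**
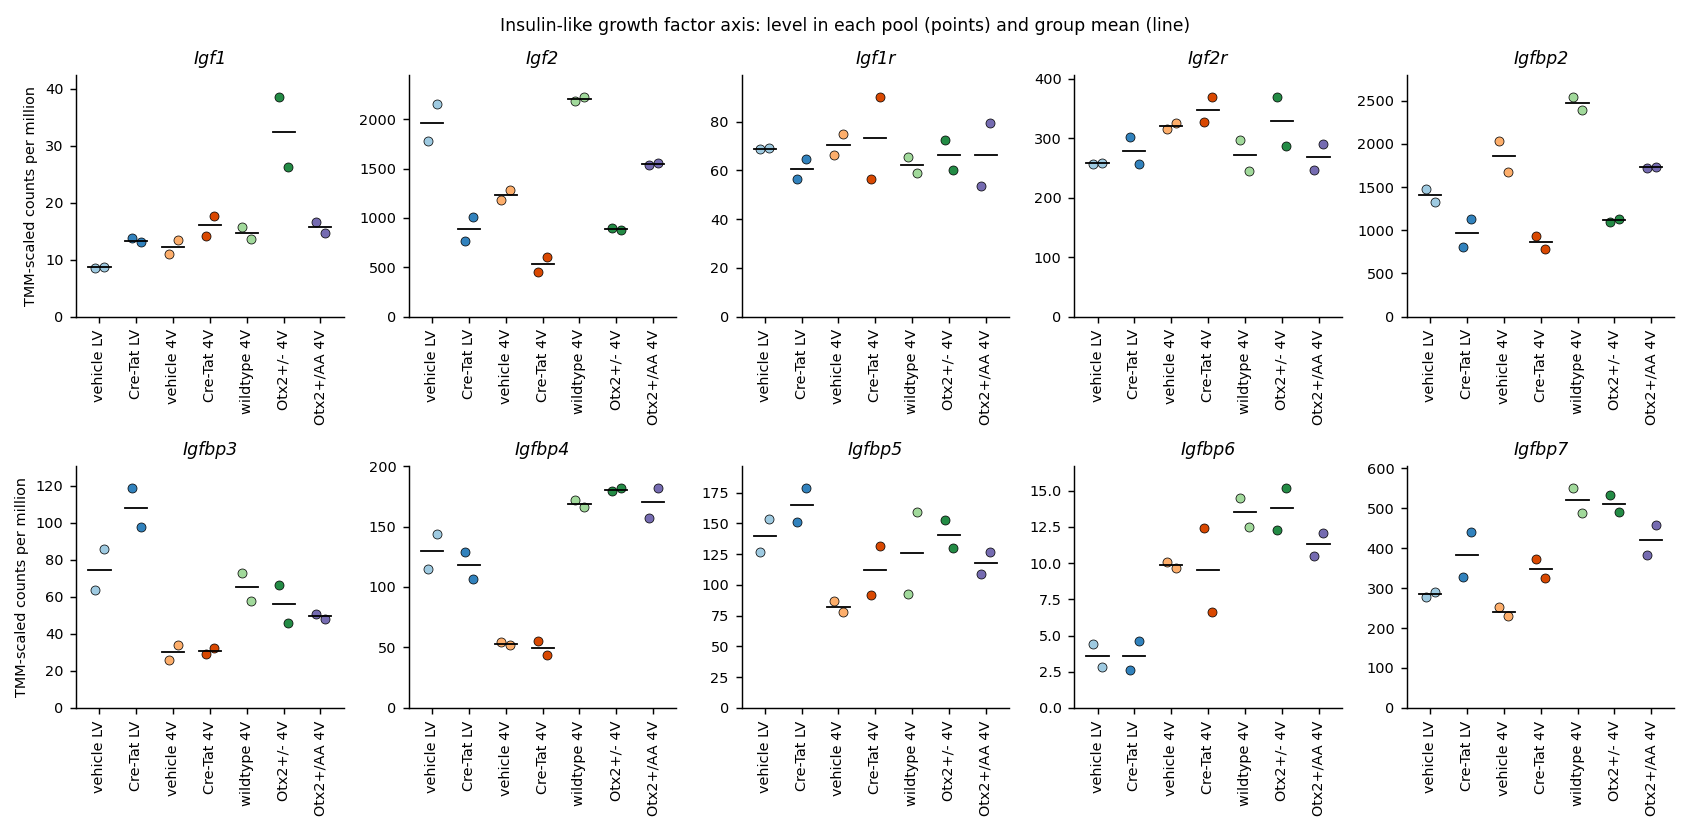
Level of each of the 10 genes (TMM-scaled CPM on the leading transcript, each panel with its own axis from 0) in the 7 groups, with 1 point for each pool and a line at the group mean. Igf2 and Igfbp2 lie lower in the pools labelled Cre-Tat and Otx2+/- than in their controls, and Igfbp3, Igfbp4 and Igfbp6 separate LV from 4V within the conditional model.

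Igf2 and Igfbp2 gave the largest decreases, so the bases before their annotated starts are shown. All 10 genes matched the RefSeq promoter table of GRCm38.p6, with 14 start sites among them. The leading transcript of Igf2, Igf2-205, starts at chr7:142659489, outside the Igf2 stretch shown. Below are the 250 bases before a start of Igf2 and of Igfbp2. The Igf2 stretch (chr7:142657497-142657746, minus strand) precedes the start whose following bases lie in transcript Igf2-201. The Igfbp2 stretch (chr1:72824230-72824479, plus strand) precedes the upstream Igfbp2 start. Both are written 5′ to 3′ on the gene's strand, with capitals for GGGCGG, the GC box bound by Sp1-type factors.
Igf2 upstream: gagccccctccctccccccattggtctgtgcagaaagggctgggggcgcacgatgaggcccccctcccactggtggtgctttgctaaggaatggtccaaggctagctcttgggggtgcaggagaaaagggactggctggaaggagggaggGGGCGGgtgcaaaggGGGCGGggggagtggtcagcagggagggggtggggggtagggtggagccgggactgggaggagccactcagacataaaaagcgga
Igfbp2 upstream: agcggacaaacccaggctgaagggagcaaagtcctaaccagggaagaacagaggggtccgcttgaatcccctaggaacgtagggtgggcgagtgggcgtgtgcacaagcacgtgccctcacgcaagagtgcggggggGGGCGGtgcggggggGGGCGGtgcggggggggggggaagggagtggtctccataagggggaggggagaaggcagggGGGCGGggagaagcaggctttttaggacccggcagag
The GC box, searched on both strands, was present 2 times in the first and 3 times in the second. The promoter windows of the table also hold bases after the start. In those it was present at least once in 35.7% of all 32851 and in 6 of the 14 windows of these genes. TAATCC, the core that OTX-type homeodomains recognise, was searched on both strands in the same windows. It was present in 1 of the 14, against 7.06% of all windows. That match is at another Igf2 start and lies 11 bases after it, within an exon of Igf2-205 (chr7:142658777-142658806, minus strand), where capitals mark the reverse complement.
Igf2 TAATCC match: gcctacccaagtGGATTAattatacgcttt
The related core TAAGCC was found in 9.48% of all windows and also in 1 of the 14, the same Igf2 window. These matches describe letters only, and binding was not measured.

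The number of these genes past the threshold (a p below 0.05 in the quasi-likelihood test of edgeR, adjusted over all genes by the Benjamini-Hochberg method) differed between comparisons. In LV ChP, 1 of 10 differed between the Cre-Tat and vehicle labels, where 3.24% of all genes tested did. In 4V ChP it was 3 of 10, against 10.7% of all genes. Between Otx2+/- and wildtype it was 3 of 10, against 3.53%, and between Otx2+/- and Otx2+/AA also 3, against 2.70%. None of the 10 passed between Otx2+/AA and wildtype, where 0.345% of all genes did. There 4 of the 10 had an unadjusted p under 0.05, as had 8.91% of all genes, and DESeq2 called 2 of the 10 and 0.842% of all genes. Between vehicle LV and vehicle 4V, 5 of 10 passed, against 7.44%, and between LV and 4V of the pools labelled Cre-Tat 3 passed, against 5.87%. The median log2 fold change of the 10 genes was 0.08 in LV and 0.05 in 4V with the Cre-Tat label, 0.06 for Otx2+/- and -0.17 for Otx2+/AA, beside 0.00, 0.01, 0.00 and -0.01 over all genes. Comparisons that share pools, such as those with the wildtype pools or with the vehicle pools, are not independent of each other. The 10 genes were chosen with earlier results of these data known, so these counts describe the list and do not test it.

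**Figure D2:**
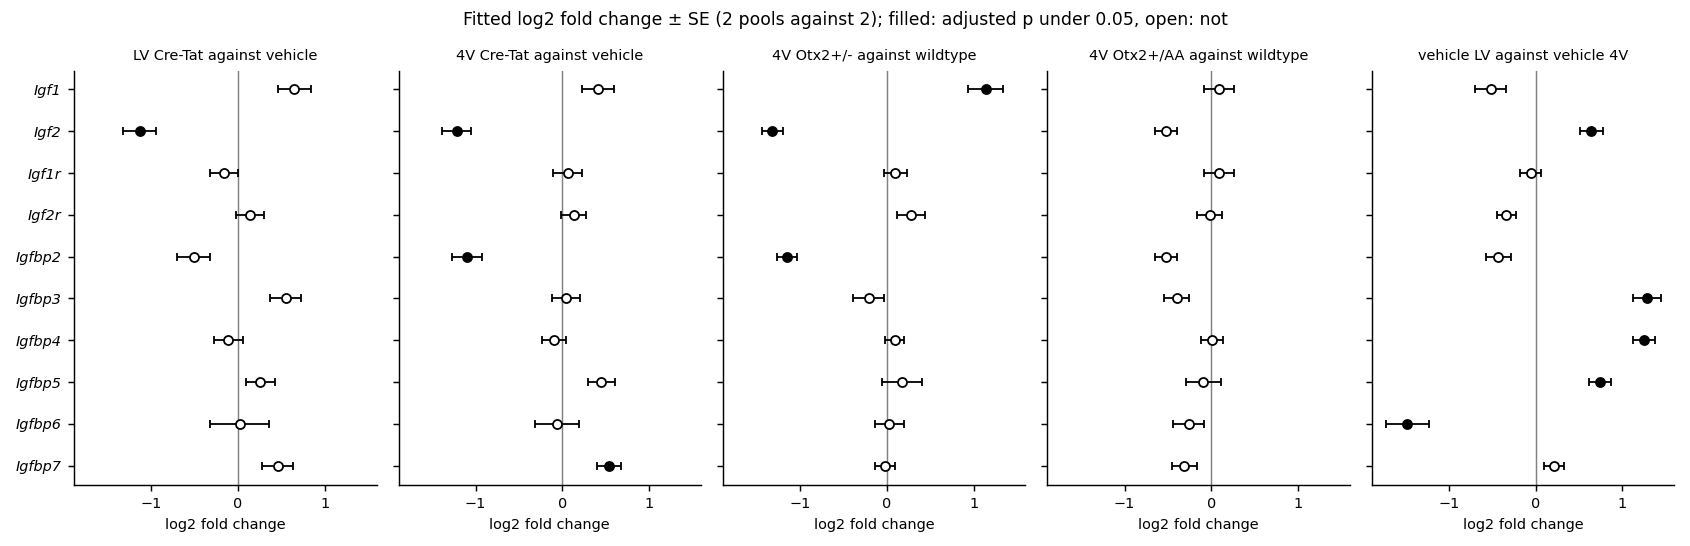
Fitted log2 fold change with its SE for the 10 genes in 5 comparisons of 2 pools against 2, with filled points for adjusted p under 0.05 (edgeR). Igf2 is a filled point below 0 in the LV Cre-Tat, 4V Cre-Tat and Otx2+/- panels, Igfbp2 in the last of these and in 4V Cre-Tat, and no point is filled for Otx2+/AA.

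Among the ligands, Igf2 fell in both ventricles with the Cre-Tat label and in the pools labelled Otx2+/-. Igf2 lies on chromosome 7 (142650766 to 142666816, minus strand, GRCm38), and its leading transcript Igf2-205 shares 3596 exonic bases with the gene model Gm49394 on the same strand, so reads of that model are included. In LV ChP its level was 1776 and 2155 CPM in vehicle pools A and B, against 761 and 1005 CPM under the Cre-Tat label. Both Cre-Tat pools lay below both vehicle pools, with a log2 fold change of -1.13 (SE, the standard error of the fit, 0.19, adjusted p = 0.0041). In 4V ChP Igf2 stood at 1185 and 1284 CPM with vehicle and at 450 and 606 CPM with the Cre-Tat label, a log2 fold change of -1.22 (SE 0.17, adjusted p = 0.00011). In the constitutive model it was 2189 and 2230 CPM in wildtype and 898 and 874 CPM in the pools labelled Otx2+/-, a change of -1.32 (SE 0.12, adjusted p = 0.0011). The Otx2+/AA pools, at 1532 and 1557 CPM, lay between these groups without overlap. Against wildtype their log2 fold change of -0.52 (SE 0.13) had an adjusted p of 0.12 in the main edgeR fit and of 0.011 in DESeq2. In edgeR it passed with no filter (0.0079) and with the replicate block (0.0037). It did not pass there with the other scalings, the other filter, summed transcripts or all groups in 1 fit. The call depends on tool and settings. The pools labelled Otx2+/- were lower than those labelled Otx2+/AA (log2 fold change -0.81, standard error 0.14, adjusted p = 0.011).

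In the 3 comparisons in which Igf2 fell, all 5 of its transcripts that held at least 10% of the leading transcript's counts moved alike. Their log2 fold changes ran from -1.21 to -1.13 in LV, from -1.3 to -1.21 in 4V and from -1.38 to -1.3 for Otx2+/-, and each of them passed the threshold. Transcripts of a gene share exons, so these are not independent measurements.

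The level of Igf2 also differed between ventricles. In vehicle mice it was higher in LV than in 4V by a log2 fold change of 0.64 (SE 0.13, adjusted p = 0.0096). Without LV vehicle pool B the value was 0.52, and with all groups of the run in 1 fit it was 0.64. Neither passed the threshold, with an adjusted p of 0.066 in both. In the pools labelled Cre-Tat the difference was 0.73 (SE 0.21, adjusted p = 0.0504), and it passed in DESeq2 with an adjusted p of 0.0089. Whether the Cre-Tat label went with a different change of Igf2 in LV than in 4V was tested directly, and the difference of log2 fold changes was 0.09 (SE 0.26, adjusted p = 1).

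Igf1, the ligand best known as the mediator of growth hormone, was a low transcript. Igf1 lies on chromosome 10 (87858265 to 87937042, plus strand), and its leading transcript Igf1-202, with 7052 bases, held 146 to 759 raw counts per pool. Its level was 15.7 and 13.6 CPM in wildtype pools A and B and 38.6 and 26.2 CPM in the pools labelled Otx2+/-. Both of the latter exceeded every other pool of the series, and the rise had a log2 fold change of 1.14 (SE 0.2, adjusted p = 0.017). The Otx2+/AA pools, at 16.6 and 14.7 CPM, overlapped wildtype, and Otx2+/- exceeded Otx2+/AA by 1.04 (SE 0.19, adjusted p = 0.012). With the Cre-Tat label Igf1 was 13.7 and 13 CPM in LV, against 8.47 and 8.77 with vehicle, without overlap and with a log2 fold change of 0.65 (SE 0.19, adjusted p = 0.078). In 4V it was 14.2 and 17.7 against 10.9 and 13.4 CPM, a change of 0.41 (SE 0.18, adjusted p = 0.2). The difference between the 4V changes of the models was -0.75 (SE 0.28, adjusted p = 0.27), so a difference between models was not shown.

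The rise of Igf1 in the pools labelled Otx2+/- depended on the transcript counted. Of its 8 transcripts, all had positive log2 fold changes against wildtype, from 0.73 to 1.15, and 1 passed the threshold, Igf1-202. When counts were summed over the transcripts of each gene, the change was 0.94 with an adjusted p of 0.067, and that against Otx2+/AA was 0.77 with an adjusted p of 0.061. In that same setting Igf1 passed in LV with the Cre-Tat label, at 0.84 with an adjusted p of 0.035. Igf1 is also made by connective tissue and myeloid cells. The 8 fibroblast and leptomeningeal markers summed to 857 to 953 CPM in wildtype and 1182 to 1301 CPM in the pools labelled Otx2+/-, where Col1a2 and Col3a1 rose, and to 791 to 899 CPM in Otx2+/AA. The 7 macrophage and microglial markers summed to 77.1 to 77.3 CPM in wildtype and 78.8 to 87.1 CPM in Otx2+/-, and in LV to 56.1 to 61.8 CPM with vehicle and 87.6 to 94 CPM with the Cre-Tat label. In LV the fibroblast and leptomeningeal markers overlapped, at 791 to 869 CPM with vehicle and 776 to 802 CPM with the Cre-Tat label. There 1 of the 8 was called higher and 1 lower. The part of these cell types in the level of Igf1 was not tested.

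The receptors were nearly level across groups. Igf1r (chromosome 7, 67952827 to 68233668, plus strand) ranged from 53.4 to 90.3 CPM over the 14 pools. In 4V pools A and B labelled Cre-Tat it was 56.4 and 90.3 CPM, a spread wider than the difference between any group means. Its log2 fold changes against control were -0.16 (SE 0.16) in LV and 0.06 (SE 0.17) in 4V with the Cre-Tat label, and 0.1 (SE 0.13) for Otx2+/-. Igf2r (chromosome 17, 12682406 to 12769664, minus strand) was more abundant than Igf1r, at 27.6 to 41.7 CPM per kilobase against 4.68 to 7.92, without overlap between any pools. Igf2r changed by 0.14 (SE 0.16), 0.13 (SE 0.14) and 0.28 (SE 0.16) in the same 3 comparisons, none past the threshold. In vehicle mice Igf2r was 28.9 and 29.2 CPM per kilobase in LV and 35.5 and 36.7 in 4V, without overlap and with a log2 difference of -0.34 (SE 0.11, adjusted p = 0.088).

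Igfbp2, the main binding protein transcript of the ChP, fell in 4V pools labelled Cre-Tat and in the pools labelled Otx2+/-. It lies on chromosome 1 (72824503 to 72852474, plus strand), beside Igfbp5, which is read from the other strand and whose end is 5457 bases away. In 4V ChP its level was 2035 and 1676 CPM in vehicle pools A and B, and 937 and 787 CPM in the pools labelled Cre-Tat. The groups did not overlap, and the log2 fold change was -1.1 (SE 0.17, adjusted p = 0.00036). In the constitutive model Igfbp2 stood at 2548 and 2390 CPM in wildtype and at 1100 and 1131 CPM in the pools labelled Otx2+/-, a change of -1.15 (SE 0.12, adjusted p = 0.0019). The Otx2+/AA pools held an intermediate level of 1724 and 1729 CPM. Their log2 fold change against wildtype was -0.52 (SE 0.13), with an adjusted p of 0.12 in the main edgeR fit and 0.011 in DESeq2. In edgeR it passed with no filter (0.0073) and the replicate block (0.0038), but not with the other scalings, the other filter, summed transcripts or all groups in 1 fit.

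Against Otx2+/AA, Igfbp2 was lower in Otx2+/- by a log2 fold change of -0.63 (SE 0.15, adjusted p = 0.038). Without pool A of Otx2+/- the value was -0.61, and without pool A or B of Otx2+/AA it was -0.64 and -0.63. None of these passed the threshold, with adjusted p of 0.11, 0.061 and 0.079. In LV ChP the vehicle pools held 1481 and 1326 CPM of Igfbp2 and the pools labelled Cre-Tat 810 and 1127 CPM. These did not overlap, but the log2 fold change of -0.51 (SE 0.19) had an adjusted p of 0.19. Without LV pool B labelled Cre-Tat it was -0.77 (adjusted p = 0.0052), and without pool A it was -0.27 (adjusted p = 0.34). The change of Igfbp2 in LV differed from that in 4V by 0.59 (SE 0.26, unadjusted p = 0.038, adjusted p = 1), so a difference between ventricles was not shown. Between vehicle LV and vehicle 4V the log2 difference of Igfbp2 was -0.43 (SE 0.14), with an adjusted p of 0.079 in the main edgeR fit and 0.033 in DESeq2. Between the 4V changes of the models the difference was 0.03 (SE 0.21, adjusted p = 0.97).

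The summed level of the 10 epithelial markers, most of it from Ttr and Enpp2, moved with Igf2 and Igfbp2. It was 226509 to 235760 CPM in LV vehicle pools and 125531 to 164198 CPM in the LV pools labelled Cre-Tat. In 4V it was 185772 to 218396 CPM with vehicle and 87417 to 98928 CPM with the Cre-Tat label. In wildtype it was 190377 to 202126 CPM, in the pools labelled Otx2+/- 128008 to 134439 CPM and in those labelled Otx2+/AA 156858 to 157826 CPM. Of the 10 markers, 4 fell in LV, 9 in 4V and 3 in Otx2+/-, and none passed for Otx2+/AA. Their median log2 fold changes were -0.64, -0.93, -0.4 and -0.17 in these comparisons, beside -1.13, -1.22, -1.32 and -0.52 for Igf2. Without Ttr and Enpp2, the other 8 markers summed in LV to 10051 to 11366 CPM with vehicle and 7207 to 7281 CPM with the Cre-Tat label. In 4V they summed to 9537 to 9822 CPM and 5553 to 6366 CPM. In the constitutive model they summed to 9167 to 10323 CPM in wildtype and 7717 to 8874 CPM in Otx2+/-. The Otx2+/AA pools, at 8310 to 9516 CPM, overlapped wildtype. In Otx2+/- 7 of the 10 markers had a negative log2 fold change, while the means of Clic6, Kcne2 and Slc4a10 were above wildtype. The paper describes Ttr as a direct target of OTX2 and lists Ttr and Aqp1 among the genes lowered in both Otx2 models. In bulk tissue, fewer cells of a type, less RNA per cell and a change of the marker genes themselves cannot be told apart. The part of epithelial content in the falls of Igf2 and Igfbp2 was not tested.

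**Figure D3:**
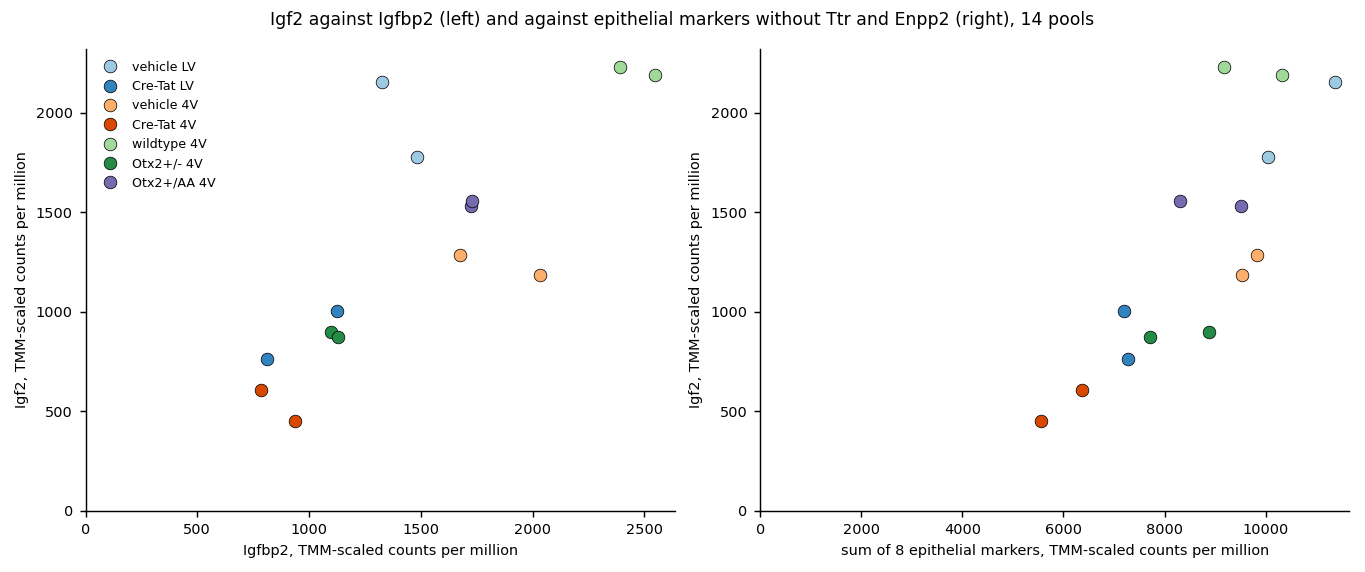
Igf2 in each of the 14 pools (TMM-scaled CPM, both axes from 0) against Igfbp2 on the left and against the sum of 8 epithelial markers on the right, with 1 point for each pool and a colour for each group. The 6 pools labelled Cre-Tat or Otx2+/- lie at the lower left of the left panel, and the LV vehicle pools hold more Igf2 but less Igfbp2 than the 4V vehicle pools.

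Ligand and binding protein were also compared within each pool, as the ratio of Igf2 to Igfbp2 per kilobase of transcript. Its size depends on the lengths of the leading transcripts, which are the same for every pool. In 4V ChP this ratio was 0.161 and 0.212 in vehicle pools A and B and 0.133 and 0.213 under the Cre-Tat label, so that the groups overlapped. In LV ChP it was 0.332 and 0.45 with vehicle and 0.26 and 0.247 with the Cre-Tat label, without overlap. For the constitutive mice the ratio was 0.238 and 0.258 in wildtype, 0.226 and 0.214 in Otx2+/- and 0.246 and 0.249 in Otx2+/AA. An exact two-sided permutation test of 2 pools against 2 cannot give a p below 0.333, which was the value for LV and for Otx2+/-, and it gave 1 for 4V and for Otx2+/AA. The clearest contrast in this ratio was between the vehicle pools of LV and 4V, which also did not overlap (exact permutation p = 0.333).

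Over the 14 pools, log2 levels of Igf2 and Igfbp2 had a Pearson correlation of 0.82, which describes pools that share groups and runs. Among 8335 genes with a mean of at least 10 CPM, those most like Igf2 in the 14 pools were Tspan33 (0.955), Spint2 (0.947), Cdr2l (0.941), Npc2 (0.939) and Fkbp10 (0.935). Those most opposed to it were Stard13 (-0.946), Iqub (-0.943) and Sorcs2 (-0.927). For Igfbp2 the most alike were Abhd12 (0.945), Eri3 (0.945), Crb3 (0.940), Maged1 (0.938) and Plek2 (0.937), and the most opposed were Etv6 (-0.930), Tprkb (-0.926) and Rhbdl3 (-0.923). No gene stood in both lists.

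Igfbp7, a secreted protein of vessel walls and basement membranes, moved opposite to Igfbp2 in 4V ChP. It lies on chromosome 5 (77349240 to 77408041, minus strand), and 77 bases of its leading transcript overlap an exon of Polr2b on the other strand. Its level was 252 and 230 CPM in 4V vehicle pools A and B and 373 and 326 CPM in the pools labelled Cre-Tat, a rise of 0.54 on the log2 scale (SE 0.14, adjusted p = 0.019). The call was lost without Cre-Tat pool A, or without either vehicle pool, with values of 0.43 to 0.64 over the pools left out. It was also lost with all groups of the run in 1 fit (0.53, adjusted p = 0.063). In LV it was 278 and 291 CPM with vehicle and 327 and 441 CPM with the Cre-Tat label, a log2 fold change of 0.46 (SE 0.18, adjusted p = 0.23). Without LV pool A labelled Cre-Tat it was 0.68 (adjusted p = 0.019), and without pool B it was 0.22 (adjusted p = 0.5). Among constitutive pools Igfbp7 was 551 and 489 CPM in wildtype and 533 and 490 CPM in Otx2+/-, which overlapped (log2 fold change -0.02, standard error 0.12). The 4V changes of the models differed by 0.55 (SE 0.18, adjusted p = 0.19), which did not pass. The 7 endothelial markers summed to 144 to 164 CPM in 4V vehicle pools and 142 to 170 CPM in the 4V pools labelled Cre-Tat, and 1 of them rose, Plvap. The 6 mural markers summed to 242 to 267 CPM and 241 to 266 CPM. Macrophage and microglial markers went from 38.9 to 40.9 CPM with vehicle to 58.5 to 77.7 CPM with the Cre-Tat label (4 of 6 tested rose), and ependymal markers from 162 to 197 CPM to 311 to 322 CPM (2 of 4 tested rose). Lymphocyte markers went from 4.42 to 4.63 CPM to 13.4 to 15.3 CPM (1 of 2 tested rose). The part of these cell types in the level of Igfbp7 was not tested.

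The make-up of the binding protein transcripts shifted with these changes. Per kilobase, Igfbp2 made up 85.7% and 84.2% of the 6 binding proteins in 4V vehicle pools, and 66.4% and 65% in the 4V pools labelled Cre-Tat. The share of Igfbp7 went from 11.6% and 12.6% to 28.7% and 29.3%. In LV ChP the share of Igfbp2 was 78.4% and 74.7% with vehicle and 61.8% and 64.7% with the Cre-Tat label. In 4V ChP of the constitutive mice it was 77.6% and 78.1% in wildtype, 60.3% and 62.9% in Otx2+/-, and 76.3% and 73.3% in Otx2+/AA. None of these groups overlapped with its control, and each exact permutation p was 0.333, the smallest that 2 pools against 2 allow. The summed level of the 6 binding proteins was 1816 and 1523 CPM per kilobase in 4V vehicle pools and 1081 and 927 in those labelled Cre-Tat, and 2512 and 2341 in wildtype against 1396 and 1376 in Otx2+/-.

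**Figure D4:**
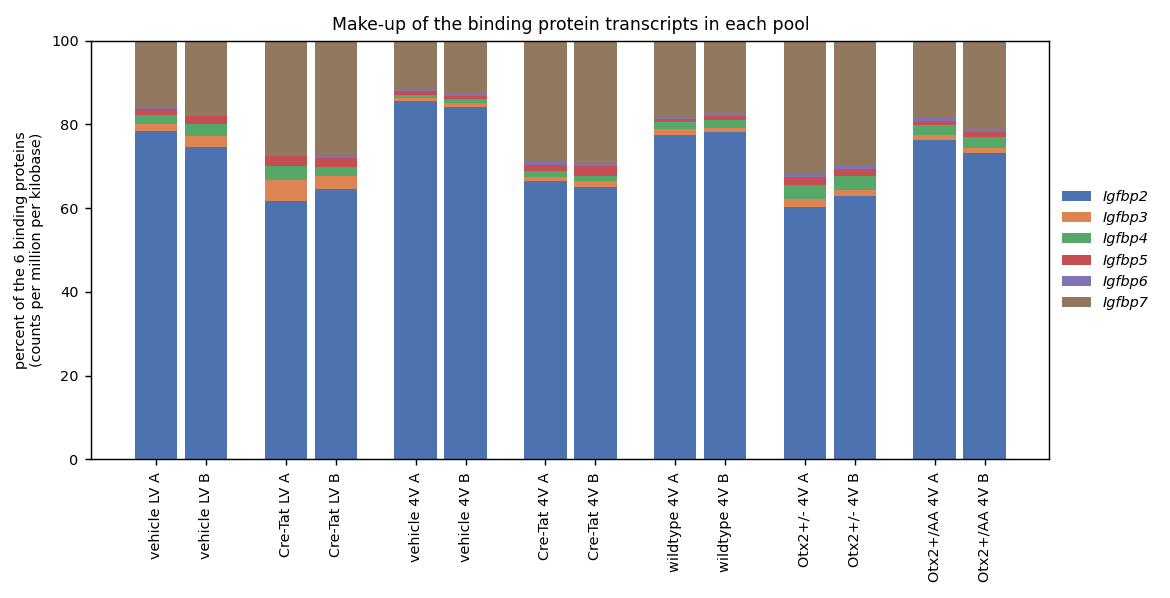
Share of each of the 6 binding proteins in their summed level (percent of CPM per kilobase, stacked to 100) in each of the 14 pools. The Igfbp2 share is lower and the Igfbp7 share higher in the pools labelled Cre-Tat and Otx2+/- than in their controls, while the Otx2+/AA pools, at 76.3% and 73.3% Igfbp2, lie just below wildtype.

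The remaining binding proteins Igfbp3, Igfbp4, Igfbp5 and Igfbp6 each differed between the ventricles of vehicle mice. None of them passed the threshold for an Otx2 label in the main edgeR fit. Igfbp3, the main IGF carrier of blood, lies on chromosome 11 (7206086 to 7213923, minus strand). It was 63.5 and 86 CPM in LV vehicle pools A and B and 26.1 and 34.1 CPM in 4V vehicle pools, a log2 difference of 1.28 (SE 0.16, adjusted p = 0.00029). Wildtype 4V pools of the constitutive model held 72.7 and 57.7 CPM and overlapped LV vehicle, so the difference is shown within the conditional model only. In the pools labelled Cre-Tat the values were 119 and 97.6 CPM in LV and 29.1 and 32.4 CPM in 4V, a difference of 1.8 (SE 0.19, adjusted p = 6.9e-06). With the Cre-Tat label Igfbp3 changed by 0.55 (SE 0.18, adjusted p = 0.14) in LV and by 0.04 (SE 0.16) in 4V, and the test of that difference gave 0.52 (SE 0.25, adjusted p = 1). Without LV pool B labelled Cre-Tat the LV change was 0.69 (adjusted p = 0.029), without LV pool A of that label 0.43 (adjusted p = 0.2), and without LV vehicle pool A 0.35 (adjusted p = 0.88).

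Igfbp4, on chromosome 11 as well (99041244 to 99054392, plus strand), encodes a binding protein that is cut by pappalysins. In LV vehicle pools it was 115 and 144 CPM and in 4V vehicle pools 54.8 and 51.6 CPM, a log2 difference of 1.25 (SE 0.13, adjusted p = 6.9e-05). Wildtype 4V pools of the constitutive model, from the other run, held 172 and 166 CPM, above both LV vehicle pools. The ventricle difference is therefore shown within the conditional model only. The pools labelled Cre-Tat gave the same difference of 1.25 (SE 0.19, adjusted p = 0.0004), from 129 and 107 CPM in LV and 55 and 43.8 CPM in 4V. Its changes against control were small in every model, at -0.11 (SE 0.17) in LV, -0.1 (SE 0.14) in 4V and 0.09 (SE 0.11) for Otx2+/-.

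Igfbp6, which prefers IGF2 over IGF1, had the opposite order. It lies on chromosome 15 (102144362 to 102149511, plus strand) and held 56 to 297 raw counts per pool. Its level was 4.41 and 2.82 CPM in LV vehicle pools and 10.1 and 9.66 CPM in 4V vehicle pools, a log2 difference of -1.48 (SE 0.25, adjusted p = 0.0031). In the pools labelled Cre-Tat it was 2.59 and 4.64 CPM in LV and 12.4 and 6.59 CPM in 4V, a difference of -1.4 (SE 0.31, adjusted p = 0.01). Without 4V pool A labelled Cre-Tat that difference was -0.88 and was not called. No Otx2 label went with a called change of Igfbp6.

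Igfbp5 lies on chromosome 1 (72857932 to 72874884, minus strand) and encodes a binding protein that attaches to extracellular matrix. In vehicle mice it was 127 and 154 CPM in LV and 86.6 and 77.8 CPM in 4V, a log2 difference of 0.74 (SE 0.13, adjusted p = 0.0035). The call was lost without 4V vehicle pool B, with a value of 0.66 and an adjusted p of 0.056. In the pools labelled Cre-Tat the difference was 0.55 (SE 0.2, adjusted p = 0.12). In 4V ChP the Cre-Tat label went with 92.1 and 132 CPM of Igfbp5, above both vehicle pools. The log2 fold change of 0.45 (SE 0.16) had an adjusted p of 0.082 in edgeR. This change passed in edgeR with total-count scaling (adjusted p = 0.016), no filter (0.022) and the replicate block (0.00012). It did not pass with the other scaling or filter, summed transcripts (0.14), all groups in 1 fit (0.17) or DESeq2 (0.15). Without 4V pool A labelled Cre-Tat it was 0.68 (adjusted p = 0.00053), and without pool B it was 0.18 (adjusted p = 0.62). The wildtype 4V pools of Igfbp5 differed widely, at 92.7 and 159 CPM, a range that spans both LV vehicle pools. The Otx2+/- change of 0.17 rested on which wildtype pool was used. Without wildtype pool B it was 0.61 (adjusted p = 0.047), and without pool A it was -0.18 (adjusted p = 0.77).

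Markers of other cell types also differed between the ventricles. Of the 7 endothelial markers, 3 were higher in LV than in 4V of vehicle mice (Pecam1, Tie1 and Plvap, the last by a log2 fold change of 1.75), and their sum was 218 to 262 CPM in LV and 144 to 164 CPM in 4V. The 8 fibroblast and leptomeningeal markers summed to 791 to 869 CPM in LV and 653 to 690 CPM in 4V, with Dcn called higher in LV. The 10 epithelial markers had no call between vehicle ventricles and a median log2 difference of 0.14. Macrophage and microglial markers summed to 56.1 to 61.8 CPM in LV and 38.9 to 40.9 CPM in 4V (1 of 6 tested called higher in LV). Oligodendrocyte markers summed to 29.3 to 53.4 CPM and 24 to 28.7 CPM (1 of 3 tested called higher). Astrocyte markers summed lower in LV, as Igfbp6 did, at 80.6 to 94 CPM against 106 to 125 CPM (1 of 4 tested called higher, 1 lower). The part of these cell types in the ventricle differences of Igfbp3, Igfbp4, Igfbp5 and Igfbp6 was not tested.

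Of 41 other genes of insulin and IGF signalling, chosen by name with earlier results known, 31 to 33 were tested in each comparison. In LV ChP 2 of 31 fell with the Cre-Tat label, where 3.24% of all genes passed in either direction. In 4V 4 of 32 fell and 2 rose, where 10.7% of all genes passed. For Otx2+/- 1 of 33 fell, where 3.53% passed, and for Otx2+/AA none of 33 passed. Their median log2 fold changes were -0.07, -0.01, 0.1 and 0.00. Ins2, an insulin gene next to Igf2, was the gene that fell in each of the first 3, from 20 and 21.6 CPM to 7.16 and 12.8 CPM in LV (log2 fold change -1.04, adjusted p = 0.027). In 4V it went from 12.3 and 10.9 CPM to 4.96 and 4.64 CPM (-1.27, adjusted p = 0.00051), and in the constitutive model from 8.42 and 9.27 CPM in wildtype to 4.42 and 3.95 CPM in Otx2+/- (-1.08, adjusted p = 0.019). Like Igf2 it was higher in LV than in 4V of vehicle mice (0.81, adjusted p = 0.007).

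Igf2os, an antisense transcript of the Igf2 locus, fell in 4V with the Cre-Tat label from 5.07 and 6.63 CPM to 1.67 and 1.75 CPM (log2 fold change -1.75, adjusted p = 0.00069). Elsewhere it was also lower without overlap, though not called. In LV it was 7.31 and 5.64 CPM with vehicle and 3.48 and 3.73 CPM with the Cre-Tat label. In wildtype it was 3.19 and 3.03 CPM, against 1.07 and 1.85 CPM in Otx2+/-. The strand setting of the counting is not known, so reads of Igf2os and of overlapping sense transcripts cannot be told apart. H19 is the noncoding RNA imprinted opposite to Igf2. In 4V with the Cre-Tat label it rose from 0.955 and 1.1 CPM to 2.59 and 3.64 CPM (1.61, adjusted p = 0.011). These are low transcripts, with 21 to 151 raw counts per pool for Igf2os and 5 to 73 for H19. Ghr, the growth hormone receptor, fell in LV (-0.64, adjusted p = 0.045) and 4V (-0.62, adjusted p = 0.0053) with the Cre-Tat label. In Otx2+/- Ghr stood at 74.9 and 72.3 CPM against 61.3 and 62.2 CPM in wildtype, and the changes of the models differed by -0.88 (SE 0.16, adjusted p = 0.016). Htra1, a secreted protease that cuts binding proteins, fell in 4V with the Cre-Tat label (-0.99, adjusted p = 0.0055). Foxo3, a transcription factor held inactive by insulin signalling, rose there from 57.2 and 73.9 CPM to 117 and 169 CPM (1.13, adjusted p = 0.00023). Foxo3 was also higher without overlap, though not called, in LV and in Otx2+/-. It was 50.3 and 73.3 CPM in LV with vehicle and 104 and 88.5 CPM with the Cre-Tat label. In wildtype it was 70.7 and 58.4 CPM, against 113 and 77.7 CPM in Otx2+/-. Between vehicle ventricles, Grb14, an adaptor that inhibits the insulin receptor, and Pik3cb, a kinase subunit, were lower in LV by 0.74 each on the log2 scale, with adjusted p of 0.0036 and 0.037.

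Both tests of a difference between responses gave no called gene among the 10. For ventricle and Cre-Tat label, where 0.00642% of all genes were called, 1 of the 10 (Igfbp2) had an unadjusted p under 0.05, as had 2.67% of all genes. For model and knockdown label in 4V, where 1.64% of all genes were called, 2 of the 10 (Igf1 and Igfbp7) had an unadjusted p under 0.05, as had 1987 of all 15327 genes. DESeq2 also called none of the 10 in either test.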

How the data were processed

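The authors deposited raw counts per transcript, made per the labels' processing notes with Bowtie 0.12.9, SAMtools, HTSeq 0.5.3 and mm10. The strand setting of the counting is not given in the sources used here, and the labels name ribosomal depletion where the methods name polyA selection. Counts of both sequencing runs of a pool were summed. Of 95533 transcripts, 82807 matched GENCODE vM21, and the other 12726 held 10.5% of counts and were left out of the tests. For each gene the transcript with the highest summed count stood for it. edgeR 4.0.16 (R 4.3.3) was used with filterByExpr, TMM scaling and the quasi-likelihood test over all genes of the pools compared, with Benjamini-Hochberg adjustment and a threshold of 0.05. The steps were tested on simulated data. DESeq2 1.42.0, other scalings, filters, summed transcripts, all groups in 1 fit, a replicate block, files joined as deposited and each pool left out were alternatives. CPM are TMM-scaled. Pool totals of 22750019 to 50088408 counts leave little counting error for the abundant genes, and more for Igf1, Igfbp6, Ins2, Igf2os and H19. Named genes are the 10 members, Otx2, pathway genes called in the Otx2 comparisons or between vehicle ventricles, and the 5 most and 3 least similar genes to Igf2 and Igfbp2. Cell type markers are named where their list's level moved with a result, and gene models that overlap a member are named with it. Members and lists were chosen with earlier results of these data known.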

Additional observations from a re-analysis of the deposited data

How the results depend on the processing

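Over the 18 called changes of the 10 genes, 216 alternative values were computed. These leave out the join as deposited and the crossed letters, which are given below. Of these, 203 kept direction and threshold, 13 kept the direction but not the threshold, and 0 reversed. In LV with the Cre-Tat label, where 1 of the 10 genes was called, 2 were called with total-count scaling and 2 with transcripts summed, and 1 to 3 when a pool was left out. Under total-count scaling the median over all genes, on the log2 scale, was 0.17 in LV and 0.15 in 4V with the Cre-Tat label, 0.11 for Otx2+/AA, and -0.19 and -0.17 between ventricles with vehicle and the Cre-Tat label, beside 0.00, 0.01, -0.01, 0.01 and -0.01 under TMM. In LV the genes called then split into 396 higher and 48 lower, against 331 and 155, and in 4V into 1316 and 426, against 829 and 725. Between vehicle ventricles they split into 252 and 1222, against 504 and 579, and with the Cre-Tat label into 369 and 1164, against 451 and 436. Total counts called 8 of the 10 genes between vehicle ventricles and 10.1% of all genes, where the main fit called 5 and 7.44%. For Otx2+/AA, DESeq2, no filter and the replicate block each called 2 of the 10, Igf2 and Igfbp2, where none was called, and called 0.842%, 1.67% and 3.79% of all genes. Between ventricles of the Cre-Tat label, leaving out a pool also changed which of the 10 were called. Nothing says that pools with the same letter are the same mice, and their deviations correlated at -0.12 in LV, 0.13 in 4V and 0.35 for Otx2+/-. With the replicate block the genes called went from 486 to 622 in LV, from 1554 to 3114 in 4V, and from 515 to 2539 for Otx2+/-. For the difference between models the block called 2 of the 10 genes, Igf1 and Igfbp7, and 6.84% of all genes. Between ventricles the block took the genes called from 1083 to 2288 with vehicle, where Igfbp2 (adjusted p = 0.0074) and Igf2r (0.025) also passed, and from 887 to 1177 with the Cre-Tat label, where Igf2 did (0.049). Same-letter deviations there correlated at 0.06 and 0.08. With letters crossed in LV, an alternative chosen after seeing the data, 1012 genes and 4 of the 10 were called. With files joined as deposited, 8 of the 10 were called in LV and 10 in 4V, where 44.9% and 58.8% of all genes were. Between ventricles of vehicle and Cre-Tat pools 10 and 6 were called, against 32.6% and 32.0%, and in the tests of a difference by ventricle and by model 9 each, against 34.2% and 30.4%. The cause of these changes was not tested, except that the join as deposited places runs of different libraries in 1 pool.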
